A study of Mus musculus with 8 samples.

Results

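Emp2 encodes epithelial membrane protein 2, the surface protein that the granzyme B fusion GrB-Fc-KS49 is directed to, and belongs with Emp1, Emp3 and Pmp22 to the PMP22 family. The 4 genes were taken by name from a deposited table of 26709 genes, and all 4 passed the low-count filter that left 19718 genes for testing. They were measured by sequencing of mRNA-enriched libraries in 8 mammary tumours of the mouse carcinoma line EMT6, labelled as wild type, grown in syngeneic Balb/c mice. In 4 of them the labelled treatment is IgG, the control, and in the other 4 it is Granzyme-B, which the series title gives as GrB-Fc-KS49, with dosing 3 times over 10 days. All tumours derive from 1 cell line, the agent is a human fusion protein in mouse tumours, and the sources used here do not give the animals' age or say that each tumour came from its own animal, so a p-value here speaks only of the variation among these 8 tumours. Libraries are called IgG replicates 1 to 4 and, for GrB-Fc-KS49, treated replicates 1 to 4, numbers that pair nothing across the groups.

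Members of this family are small tetraspan membrane proteins with the fold of the claudins. EMP2 is known from lung and other epithelia and from breast and ovarian carcinomas, where it has been tied to the trafficking of integrins, to caveolae and to signalling through focal adhesion kinase and Src. EMP1 is a surface protein of epithelia that is induced in several tumours, EMP3 is found in leukocytes and mesenchymal cells, and PMP22 is a constituent of the compact myelin made by Schwann cells and was also found as the growth arrest-specific gene Gas3. Proteins of this kind sit in the plasma membrane, and a transcript level says nothing of how much protein is on the surface.

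All 4 genes lie on different chromosomes of GRCm39 and overlap no other gene of the deposited table on either strand. Emp1 (ENSMUSG00000030208) is at chromosome 6, 135339543 to 135360171, plus strand. Emp2 (ENSMUSG00000022505) is at chromosome 16, 10099613 to 10131832, minus strand. Emp3 (ENSMUSG00000040212) is at chromosome 7, 45567447 to 45570828, minus strand. Pmp22 (ENSMUSG00000018217) is at chromosome 11, 63019808 to 63050373, plus strand. The values below are counts over whole genes and do not separate their transcripts. Promoters of the 3 members on which the results turn are shown from RefSeq (GRCm38.p6, from 250 bases before to 50 after an annotated start), to set the gene of the agent's target beside the 2 members whose group means differed most in relation to their spread. Capitals mark matches on either strand to the core promoter motif TATAAA, to the Sp1-type motif GGGCGG or to the AP-1-type motif TGANTCA, and no match in these windows overlaps another. The sequences are Emp1 at chr6:135362681-135362980, plus strand, Emp2 at chr16:10313919-10314218, minus strand, and Emp3 at chr7:45921377-45921676, minus strand.
Emp1: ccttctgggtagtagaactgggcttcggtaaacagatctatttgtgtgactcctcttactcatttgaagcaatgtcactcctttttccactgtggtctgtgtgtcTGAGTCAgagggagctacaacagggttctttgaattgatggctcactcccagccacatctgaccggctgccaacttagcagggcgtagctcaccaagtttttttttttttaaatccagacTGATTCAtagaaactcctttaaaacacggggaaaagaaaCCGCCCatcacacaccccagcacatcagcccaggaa
Emp2: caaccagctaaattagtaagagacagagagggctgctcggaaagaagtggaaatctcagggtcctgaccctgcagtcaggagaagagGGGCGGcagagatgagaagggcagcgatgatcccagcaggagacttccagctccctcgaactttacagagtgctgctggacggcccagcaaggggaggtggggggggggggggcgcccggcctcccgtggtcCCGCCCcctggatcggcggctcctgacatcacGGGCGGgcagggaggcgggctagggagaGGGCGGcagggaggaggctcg
Emp3: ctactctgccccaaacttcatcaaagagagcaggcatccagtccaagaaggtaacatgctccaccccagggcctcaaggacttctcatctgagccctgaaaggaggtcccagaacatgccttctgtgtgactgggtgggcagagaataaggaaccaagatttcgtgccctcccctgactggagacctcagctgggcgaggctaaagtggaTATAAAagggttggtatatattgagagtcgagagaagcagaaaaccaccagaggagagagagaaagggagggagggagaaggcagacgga

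The Emp1 window held 2 matches to TGANTCA and 1 to GGGCGG, the Emp2 window 4 to GGGCGG, and the Emp3 window 1 to TATAAA. Of 32851 RefSeq promoters of this length, 7.8% held TGANTCA, 35.7% GGGCGG and 13.6% TATAAA. Base composition differed too, with 65.7% G or C and 16 CG dinucleotides in the Emp2 window, 46.7% and 5 in that of Emp1 and 52.7% and 4 in that of Emp3, against medians of 52.7% and 7 over all promoters. RefSeq lists a second start for Emp1 and for Emp3 and 4 starts for Pmp22, and these tumours' own starts were not measured.

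Total estimated counts ran from 73.98 to 82.6 M per library. Of 19718 genes, edgeR's quasi-likelihood test called 0 (0%) with Benjamini-Hochberg adjustment at 0.05, while 35.1% had an unadjusted p under 0.05, made up of 17.3% higher and 17.8% lower after treatment. Higher genes were 49.2% of those with such a p, and 61.5% with upper quartile scaling. In 10.3% of genes every treated tumour lay above every control, and in 15.3% every treated tumour lay below. Some treated tumours carried more transcripts of other tissues. Summed over 12 skeletal muscle markers the level was 2656 CPM in treated replicate 1 and 44.6 to 415 CPM in the other 3 treated tumours, against 45.3 to 213 CPM in controls. The 9 tested of 12 epidermal markers summed to 2218 CPM in treated replicate 2 and to 417 to 551 CPM in the other 3, against 457 to 569 CPM in controls, and 10 adipocyte markers to 468 CPM in treated replicate 3 and 70.03 to 152 CPM in the other 3, against 48.7 to 89.6 CPM. The epidermal markers that failed the low-count filter, Krt1, Dsg1a and Dsc1, were at 564.7, 58.16 and 13.96 CPM in treated replicate 2. In every other tumour they were at 1.939 CPM or less. None of the tested markers was at 0 in all tumours. Keratin 8 (Krt8), a marker of simple epithelium, was at 391 to 631 CPM over the 8 tumours, whereas the epithelial adhesion genes Epcam and Cdh1 were at 2.73 to 16.0 and 4.05 to 36.9 CPM and vimentin (Vim), a mesenchymal filament, at 4245 to 5137 CPM. Of the defining markers of the labelled epithelial cell type, Krt8 was thus abundant while Epcam and Cdh1 were low. In whole tumours, fewer cells of a type and less RNA per cell cannot be told apart.

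Scaled by transcript length (CPM per kilobase), Emp1 was the most abundant member in every tumour and Emp3 the next. In IgG controls Emp1 was at 379 ± 43.1, Emp3 at 144.5 ± 11.04, Emp2 at 39.1 ± 3.88 and Pmp22 at 38.6 ± 6.37 CPM per kb (SD, n = 4 each). In GrB-Fc-KS49 tumours the same levels were 283 ± 51.6, 166 ± 8.53, 39.3 ± 8.63 and 33.1 ± 3.91 CPM per kb. Emp2 and Pmp22 did not differ in level beyond their spread, and Pmp22 was above Emp2 in IgG replicate 1 and in treated replicate 3 and below it in the other tumours. In controls 99.0% of genes with a known transcript length lay at a lower CPM per kb than Emp1, 97.3% lay lower than Emp3, 88.9% lower than Emp2 and 88.7% lower than Pmp22. The gene of the agent's target was thus not the most abundant member at the RNA level, with 5.997% to 8.89% of the summed CPM per kb of the 4 genes in any tumour.

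**Figure D1:**
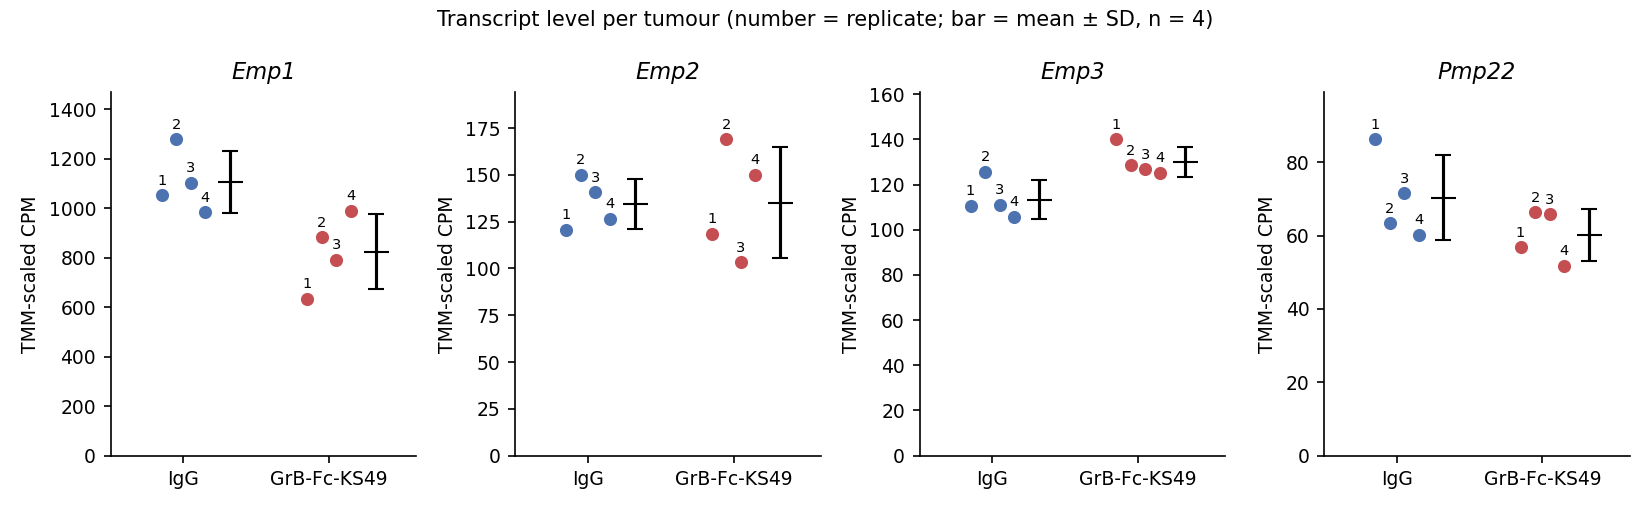
TMM-scaled CPM (vertical axis, from 0) of Emp1, Emp2, Emp3 and Pmp22 in 4 IgG and 4 GrB-Fc-KS49 tumours, each point 1 tumour numbered by replicate, bars the mean ± SD. Treated tumours lie low for Emp1 and high for Emp3, and spread to both sides of the controls for Emp2.

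Emp2 had nearly equal means in the groups. In IgG replicates 1 to 4 it was at 120.7, 150.2, 141 and 126 CPM, and in treated replicates 1 to 4 at 119, 169, 103 and 150.003 CPM. The treated tumours thus enclosed the range of the controls, with replicate 2 above and replicates 1 and 3 below all of them. The log2 fold change was 0.01 (SE 0.15, unadjusted 95% interval -0.34 to 0.36, edgeR adjusted p = 0.977). With 4 tumours a group, changes of either sign within that interval are thus not excluded. Its coefficient of variation was 22.0% in treated tumours and 9.94% in controls, and 78.8% of all tested genes were likewise more variable among the treated tumours on the log2 scale. Without treated replicate 2 the log2 fold change was -0.10 and without replicate 3 it was 0.11. These are the tumours with the highest epidermal and the highest adipocyte markers, whose part in the Emp2 level was not tested.

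Emp1, the most abundant member, had a lower mean in treated tumours. The 4 controls were at 1053, 1277, 1103 and 983 CPM, and the treated tumours, in the same order of replicates, at 633, 882, 792 and 989 CPM. Of the treated tumours, 3 lay below every control, while replicate 4 lay just above the lowest control. The treated mean was 0.746 of the control mean, with a log2 fold change of -0.42 (SE 0.14, unadjusted 95% interval -0.75 to -0.10). This difference had an edgeR adjusted p of 0.0822, short of the threshold, and 19.6% of the tested genes had a smaller p. The exact 2-sided permutation test on log2 CPM gave p = 0.0571, where the smallest possible with 70 splits is 0.0286, the value it took with CPM scaled by library totals alone. Emp1 passed the threshold by DESeq2 (adjusted p = 0.0377), which called 23.9% of genes, and by edgeR without treated replicate 4 (adjusted p = 0.0415, log2 fold change -0.52), where 17.1% of genes were called. Without replicate 1, the tumour with the highest muscle markers and the lowest Emp1, the log2 fold change was -0.32.

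Emp3 had a higher mean in treated tumours and was the least variable member within each group. Its level was 111, 126, 111 and 106 CPM in IgG replicates 1 to 4, and 140, 129, 127 and 125 CPM in treated replicates 1 to 4. Only IgG replicate 2, at 125.8 CPM, reached the treated range, lying just above treated replicate 4 at 125.3 CPM. The log2 fold change was 0.20 (SE 0.07, unadjusted 95% interval 0.03 to 0.37), with an edgeR adjusted p of 0.101 and an exact permutation p of 0.0571 (0.0286 with library totals alone). DESeq2 called it as well (adjusted p = 0.0472). The direction turned when each library's trend of expression with transcript length and GC content was removed, to a log2 fold change of -0.13 (edgeR adjusted p = 0.334). Emp3 has the shortest transcript of the family (784 bases, 56.9% GC, against 2911 bases and 45.3% for Emp1), and across 14692 genes, which are no independent replicates, Spearman's rank correlation between transcript length and a library's departure from the gene's mean over all 8 libraries ran from 0.309 to 0.388 over the control libraries and from -0.372 to -0.0753 over the treated ones. Among treated libraries it was most negative in replicate 1 (-0.372) and least so in replicate 4 (-0.0753), with -0.307 and -0.158 in replicates 2 and 3. With a mean over both groups, a trend in one group forces the opposite trend in the other. The trend runs with the groups, so its removal can also take out a difference due to treatment, and the 2 cannot be told apart here. After the same removal Emp1 was at a log2 fold change of -0.34 and Emp2 at 0.05. Macrophage markers, which mark cells that can carry Emp3, summed to 2809, 2043, 1347 and 1264 CPM in treated replicates 1 to 4. In controls they summed to 1058 to 1340 CPM (12 of 12 markers tested). Of the sum in treated replicate 1, C1qa, C1qb and C1qc held 762, 486 and 511 CPM. By log2 fold change 10 of these markers were higher and 2 lower, Mrc1 (-0.39) and Itgam (-0.13). The 12 tested of 14 lymphocyte markers summed to 186, 148, 49.4 and 81.2 CPM against 50.0 to 82.9 CPM. Ptprc alone held 95.2, 97.0, 35.4 and 50.8 CPM of the treated sums. All 12 had a positive log2 fold change, 10 at an unadjusted p under 0.05 by edgeR, against 17.3% of all genes. None of these markers was at 0 in all tumours, and their part in the Emp3 level was not tested.

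Pmp22, the myelin gene, had levels of 86.2, 63.5, 71.6 and 60.2 CPM in controls 1 to 4 and of 56.9, 66.4, 65.9 and 51.8 CPM in treated tumours 1 to 4. The groups overlapped, with 2 treated tumours below every control and the other 2 inside the control range. The log2 fold change was -0.22 (SE 0.13, edgeR adjusted p = 0.247, exact permutation p = 0.2). Much of it came from IgG replicate 1, without which the log2 fold change was -0.09. Across the family, treated replicate 1 had the lowest Emp1 and the highest Emp3 of the 8 tumours. On TMM-scaled CPM none of the 4 members separated the groups completely, against 10.3% and 15.3% of all tested genes that did so in the higher and the lower direction. With library totals alone Emp1 and Emp3 did separate them, as their exact permutation p of 0.0286, the smallest possible, requires. The share of all genes that separate under that scaling was not computed. At an unadjusted p under 0.05 there was 1 member higher and 1 lower of 4, against 17.3% and 17.8% of all genes.

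Because scaling cancels in a ratio taken within a library, the members were also set against each other in each tumour. The log2 ratio of Emp1 to Emp3 (CPM per kb) was 1.36, 1.45, 1.42 and 1.32 in IgG replicates 1 to 4, a spread of 0.06 (SD), and 0.29, 0.89, 0.75 and 1.09 in treated replicates 1 to 4. Every treated tumour lay below every control, by 0.64 in the mean. Emp1 to Emp2 gave 3.37, 3.33, 3.21 and 3.20 in controls and 2.66, 2.63, 3.18 and 2.96 in treated tumours, again with no overlap, though treated replicate 3 and IgG replicate 4 differed by little. The other 4 pairs overlapped between the groups, with mean differences (treated less control) of -0.22 for Emp1 to Pmp22, -0.22 for Emp2 to Emp3, 0.20 for Emp2 to Pmp22 and 0.42 for Emp3 to Pmp22. These ratios were formed after the members' values were known and are a description. How often ratios of other gene pairs separate the groups was not computed. Of single genes, 15.3% were lower and 10.3% higher in every treated tumour than in every control.

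**Figure D2:**
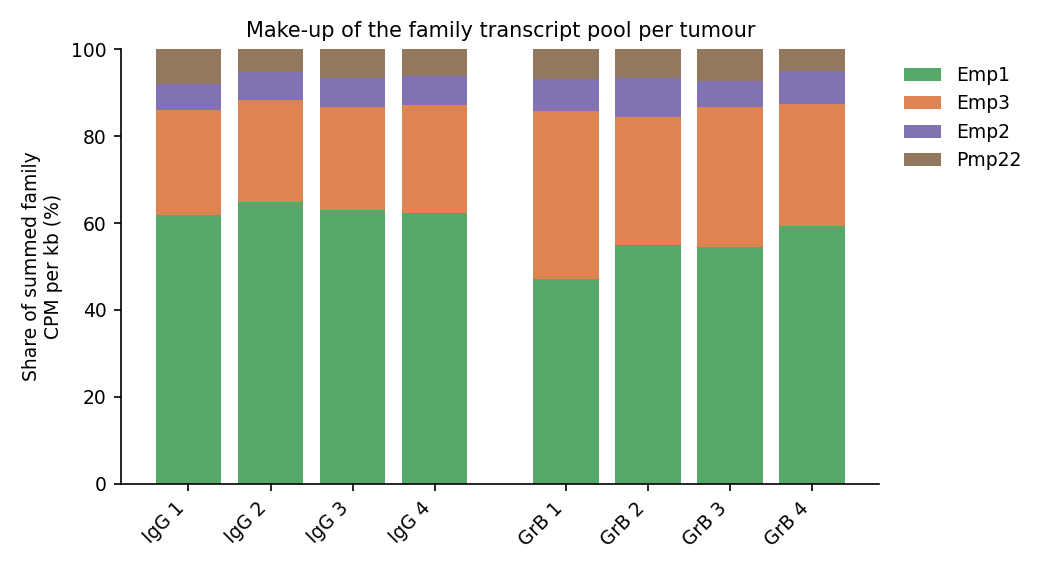
Share (percent, from 0 to 100) of each member in the summed CPM per kb of the 4 genes, 1 bar per tumour, controls on the left and treated tumours on the right. Emp1 makes up 61.8% to 64.7% in controls and 47.1% to 59.4% in treated tumours, and Emp3 23.6% to 24.9% and 27.97% to 38.7%.

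As a share of the family's summed CPM per kb, Emp1 was at 63.0% ± 1.29 in controls and 53.9% ± 5.09 in treated tumours, and Emp3 at 24.1% ± 0.591 and 32.2% ± 4.69 (SD, n = 4 each). Emp2 held 6.51% ± 0.378 and 7.50% ± 1.18, and Pmp22 6.46% ± 1.23 and 6.39% ± 0.982. The shares of Emp1, Emp2 and Emp3 thus varied less among controls than among treated tumours, while that of Pmp22 varied more among controls (5.14% to 8.09%, against 4.98% to 7.23%). The Emp1 and Emp3 shares of the treated tumours were farthest from the controls in replicate 1 and nearest in replicate 4. The trend with transcript length was likewise most negative in replicate 1 and least so in replicate 4, and its part in the shares was not tested. Summed over the family the level was 602 ± 56.5 CPM per kb in controls and 521.4 ± 49.9 CPM per kb in treated tumours.

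**Figure D3:**
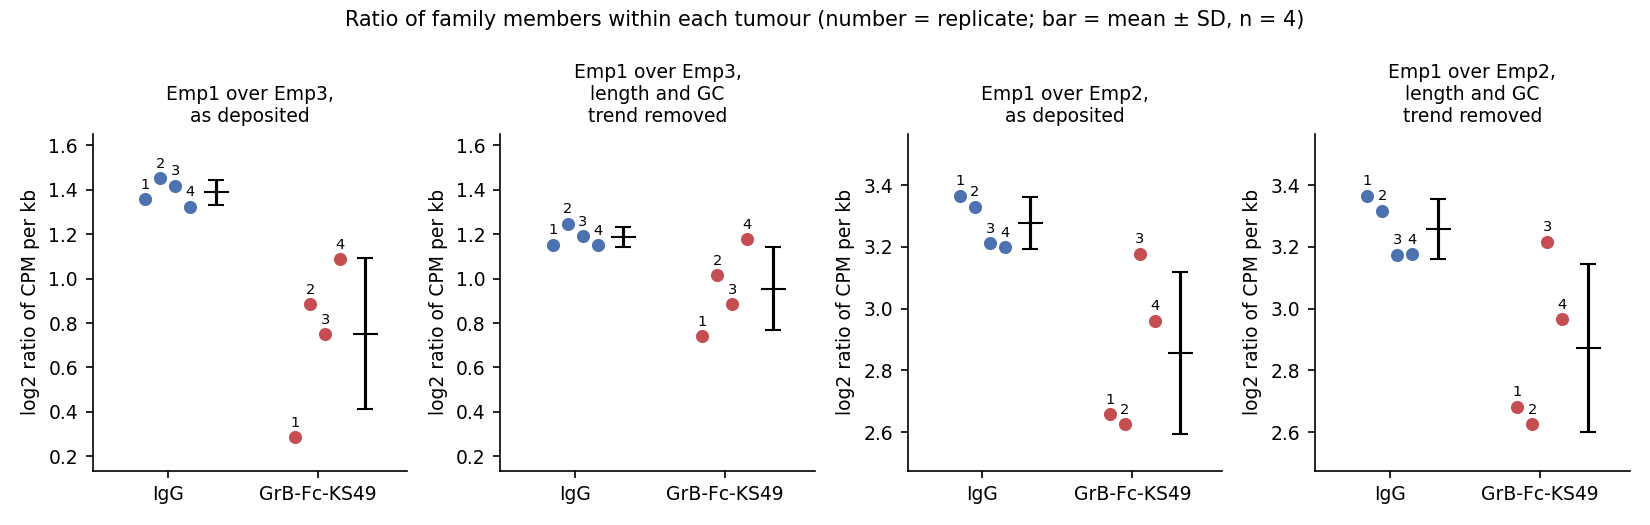
Log2 ratio of CPM per kb of Emp1 to Emp3 and of Emp1 to Emp2 within each tumour, as deposited and with the trends in length and GC taken out, each point 1 tumour numbered by replicate, bars the mean ± SD. As deposited no treated tumour reaches the controls, while without the trends treated replicate 4 (Emp1 to Emp3, 1.18) and replicate 3 (Emp1 to Emp2, 3.22) lie within the control range.

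With the length and GC trends removed, the Emp1 to Emp3 ratio was lower by 0.23 in the treated mean, in place of 0.64. It ran from 0.74 to 1.18 in treated tumours and from 1.152 to 1.25 in controls. The Emp1 to Emp2 ratio, between transcripts of more similar length (2911 and 3440 bases), was lower by 0.39 in place of 0.42. In both cases 1 treated tumour then lay within the control range.

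The genes whose profile over the 8 tumours was most like that of a member were found by Pearson's r of log2 CPM among 10889 genes with a mean of at least 5 CPM. Tumours of both groups enter these r, and genes of 1 library share its depth and its length and GC trend, so these r describe likeness only. For Emp1 they were Fut8, a fucosyltransferase (r = 0.988), Gng12, a G protein gamma subunit (0.985), and Rassf8, a Ras association domain gene (0.983). Fut8 was at 76.95 to 101 CPM in controls and at 45.9, 67.7, 64.1 and 78.9 CPM in treated replicates 1 to 4, with replicate 1 lowest and replicate 4 highest of the treated tumours, as for Emp1. Emp2 was followed most closely by Tmem41b, a lipid scramblase of the endoplasmic reticulum (0.941), Pttg1ip (0.935) and Arhgap22, a GTPase activating protein (0.914), with log2 fold changes of -0.05, -0.004 and -0.004. Arhgap22 was at 39.8 to 47.9 CPM in controls and at 40.2, 49.0, 32.2 and 52.7 CPM in treated replicates 1 to 4, with replicate 3 low and replicates 2 and 4 high. For Emp3 the genes were Tsen15, a subunit of the tRNA splicing endonuclease (0.980), Ptma, which encodes prothymosin alpha (0.970), and Fdx1, a mitochondrial ferredoxin (0.958), with log2 fold changes of 0.18, 0.10 and 0.21. For Pmp22 they were Sgsm3 (0.963), the phosphatase gene Dusp3 (0.886) and Rab3gap1 (0.885). With deviations from the group means in place of the values, r was between 0.840 and 0.980 for these 12 genes. They were picked as the highest of 10889 on the same values, so this is no separate test of the likeness.

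The genes that earlier work ties to EMP2 had, for the most part, lower means in treated tumours. Their list, like those below, was chosen with earlier results of these data known, so its counts are a description. Of 11 such genes 9 had a negative and 2 a positive log2 fold change, with a median of -0.32 against 0.03 over all genes tested. None passed an adjusted p under 0.05 by edgeR. At an unadjusted p under 0.05 there were 5 lower and 0 higher, against 17.8% and 17.3% of all genes, and the same 5 had every treated tumour below every control, beside the 15.3% of all genes that did. Hif1a, the hypoxia-inducible transcription factor, was at 273, 276, 286 and 255 CPM in the controls against 112, 186, 141 and 205 CPM in the treated tumours (log2 fold change -0.76, SE 0.17, edgeR adjusted p = 0.0619). The highest treated tumour, replicate 4, lay below the lowest control. The adjustment gave genes of unlike unadjusted p this same adjusted value. Cldn12, below, shares it at an edgeR unadjusted p of 0.000918, against 0.0019 for Hif1a.

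Itgav, the integrin alpha V chain, was at 122 to 136 CPM in controls and at 60.3, 93.2, 82.4 and 113 CPM in treated replicates 1 to 4. Itgb1, the beta 1 chain, was at 1374 to 1543 CPM against 817, 1146, 1214 and 1298 CPM. Cav1, the coat protein of caveolae, was at 650 to 696 CPM against 465, 581, 517 and 601 CPM, and Ptk2, which encodes focal adhesion kinase, at 144 to 158 CPM against 106, 112, 118 and 137 CPM. For all 4 of these genes the lowest tumour was treated replicate 1 and the highest treated tumour replicate 4. Treated replicate 1 also held the most muscle transcripts. Its trend with transcript length was the most negative (Spearman's correlation -0.372), and that of replicate 4 the least negative of the treated libraries (-0.0753). What part either has in these levels was not tested. Itga6, the alpha 6 chain, was at 67.03 to 110.1 CPM against 41.4, 75.6, 76.9 and 72.6 CPM, so that the groups overlapped. The integrin chains Itgb3 and Itgb5 had log2 fold changes of 0.12 and 0.14, the ATP receptor gene P2rx7 of -0.01, Vegfa of -0.16 and Src of -0.18. With the length and GC trends removed, 8 of the 11 had negative log2 fold changes, with a median of -0.24. At an unadjusted p under 0.05 there were then 4, all lower, against 13.7% of all genes lower and 25.2% in either direction. They were Hif1a (-0.56), Itgav (-0.30), Cav1 (-0.27) and Src (-0.21), whereas Itgb1 (-0.24) and Ptk2 (-0.19) no longer had such a p. Vegfa was then at -0.41, and P2rx7 changed sign to 0.12. Adjusted calls depended on the tool and on single tumours. They were 4 of the 11 by DESeq2 (23.9% of all genes) and 2 by limma-voom with sample weights (6.55% of all genes). By edgeR without treated replicate 4 they were 4 (median -0.37, 17.1% of all genes). By edgeR without treated replicate 1 there was 1, Hif1a (adjusted p = 0.0394, median -0.21), where 6.32% of all genes were called.

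**Figure D4:**
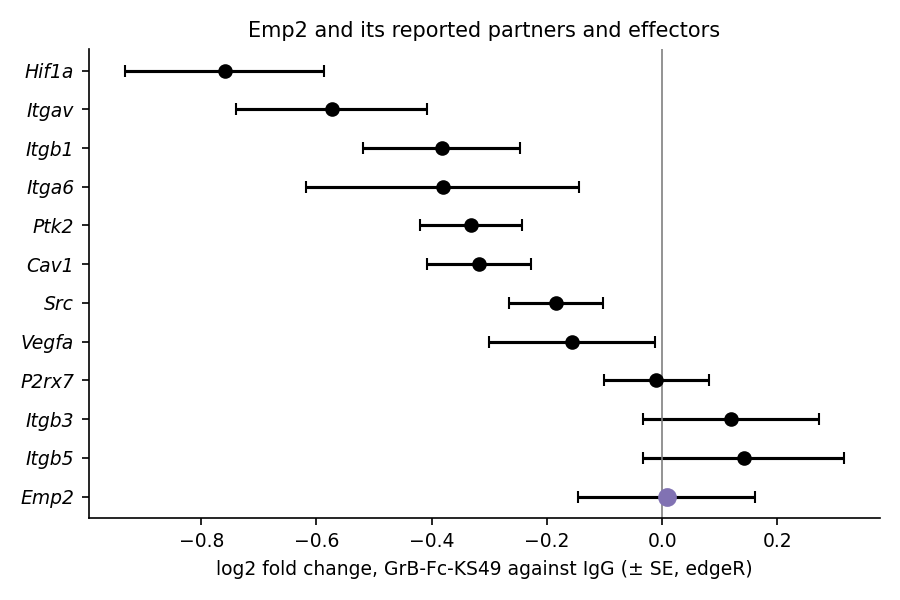
Log2 fold change (GrB-Fc-KS49 against IgG, edgeR, horizontal axis) with its standard error for 11 genes tied to EMP2 and for Emp2 itself, from 4 tumours a group. Hif1a, at -0.76, is lowest, 9 of the 11 lie below zero, and Emp2 is at 0.01.

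Of 31 other genes with the claudin fold 24 were measured and 14 tested, and the 10 that failed the low-count filter were at most 0.226 CPM in any tumour. Among the tested ones 11 had a positive and 3 a negative log2 fold change, with a median of 0.58 against 0.03 over all genes, and 3 higher and 1 lower were at an unadjusted p under 0.05, against 17.3% and 17.8% of all genes. The median was 0.34 with the length and GC trends removed, 0.31 over the 8 genes with a CPM of at least 1 in 4 libraries and 0.24 by limma on log2(CPM + 1). Cldn12, a broadly expressed claudin, was at 71.2 to 79.5 CPM in controls and at 38.5, 53.3, 52.5 and 57.5 CPM in treated replicates 1 to 4 (log2 fold change -0.59, SE 0.12, edgeR adjusted p = 0.0619). Cldn5, a claudin of endothelial tight junctions, was at 5.91 to 9.49 CPM in controls and at 11.2, 9.93, 14.2 and 14.1 CPM in treated tumours, again with no overlap. Beside it, 12 endothelial markers, Cldn5 among them, summed to 227 to 408 CPM in controls and 311 to 453 CPM in treated tumours, and their part was not tested. Cldn1, an epidermal claudin, and Perp, a p53-induced relative of PMP22 found in desmosomes, stood out in 1 tumour only. Perp reached 242 CPM in treated replicate 2 and lay at 14.5 to 39.2 CPM in the other 7 tumours, and Cldn1 reached 12.1 CPM and lay at 0.262 to 0.642 CPM in the other 7. That tumour held the epidermal markers described above, such as Krt10 at 725 CPM (Perp is itself on that list), and also the highest Emp2. What part those markers have in these levels was not tested. Nkg7, a granule protein of cytotoxic lymphocytes with the same fold, was at 12.1, 4.61, 0.345 and 1.98 CPM in treated replicates 1 to 4, while the controls lay at 0.302 to 0.814 CPM.

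Among 5 genes that act with PMP22, 3 had a positive and 2 a negative log2 fold change. Canx, the chaperone calnexin that binds PMP22 in the endoplasmic reticulum, was at 588 to 688 CPM in controls and at 466, 546, 560.5 and 561 CPM in treated tumours, all below the controls (log2 fold change -0.26, edgeR adjusted p = 0.0790). Rer1, a retrieval receptor of the Golgi, and Syvn1, a ubiquitin ligase of the endoplasmic reticulum, had log2 fold changes of 0.20 and 0.21. These 3 were the genes of the list at an unadjusted p under 0.05 (2 higher and 1 lower, against 17.3% and 17.8% of all genes), and none was so with the length and GC trends removed. Schwann cell markers were low throughout, as the 9 tested of 12 summed to 24.4 to 31.1 CPM in controls and 25.4 to 33.7 CPM in treated tumours, while Pmp22 alone was at 51.8 to 86.2 CPM. A further list held growth arrest-specific genes, the class in which Pmp22 was also found, and genes named as Gas2-like. Of its 8 measured genes 5 had a negative and 3 a positive log2 fold change. The most negative was the Gas2-like gene Gas2l3, a cytoskeletal linker (log2 fold change -0.65, edgeR adjusted p = 0.0628). It was at 37.9 to 42.9 CPM in controls and at 16.6, 24.8, 28.2 and 32.5 CPM in treated replicates 1 to 4. Without the Gas2-like genes the most negative was Gas2 (log2 fold change -0.39, edgeR adjusted p = 0.292). Gas6, a ligand of TAM receptors, ran from 13.2 to 43.7 CPM in controls and from 19.8 to 94.9 CPM in treated tumours.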

How the data were processed

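RNA of 8 EMT6 tumours was sequenced from mRNA-enriched libraries made with a kit that marks strand, per the labels' protocols. The submitters' processing notes name bcl2fastq 2.19.1.403, STAR and the build GRCm39. For the counter, the annotation and the use of strand in counting, the sources used here give nothing. The authors deposited estimated counts per gene, many of them not whole numbers and none from genes with fewer than 10 counts over the 8 libraries. They also deposited CPM, the same counts with 0.0001 added and divided by the library total. These were used to check the counts and, without TMM scaling, in the limma alternatives on log2(CPM + 1) and log2(CPM + 0.25).

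Estimated counts were rounded, genes kept by filterByExpr, libraries scaled by TMM and groups compared with edgeR 4.0.16 (robust quasi-likelihood F test, R 4.3.3), with Benjamini-Hochberg adjustment over all 19718 genes and a threshold of 0.05. The test was tried on simulated counts. Standard errors follow from the F statistic. Printed CPM are TMM-scaled. For each member all 70 splits of the tumours gave an exact 2-sided permutation p. Transcript lengths and GC content are those of the longest principal transcript in GENCODE M21 (GRCm38). Where a gene has no principal transcript, its longest transcript was used. Lengths were available for 98.1% of tested genes. The length and GC correction, added after the data were seen, removes a smooth trend fitted per library with mgcv 1.9.3. Alternatives were other scalings and filters, DESeq2 1.42.0, limma 3.58.1, each library left out, and the U suffix that the titles of IgG replicate 1 and GrB-Fc-KS49 replicate 3 carry with no meaning stated. The members, the lists and the tests were chosen with earlier results of these data known. A gene of the lists is not reported here and was left out of their counts and sums. The rule for naming genes takes the members and the 3 most alike of each. From each list it takes up to 4 of smallest p and 2 of highest level, and any behind a count of 5 or fewer. Not every gene so admitted is described, and Cldnd1, Itgb4, Gas5 and Gas2l1 are among those left out. Perp lies outside the rule. Src, Vegfa, P2rx7, Itga6, Epcam, Cdh1, Krt10, Krt1, Dsg1a, Dsc1 and Vim were named after their values were seen.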

Additional observations from a re-analysis of the deposited data

Results flagged for a closer look

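In 58 sets of 4 tumours examined for 1 value far from the other 3, 3 stood out, where chance gives about 1 in 20. None was a value, share or ratio of Emp1, Emp2, Emp3 or Pmp22. Itga6, the integrin alpha 6 chain, was at 41.4 CPM in treated replicate 1 and at 72.6 to 76.9 CPM in the other treated tumours. Canx was at 466 CPM in the same tumour and at 546 to 561 CPM in the others. P2rx7 was at 25.9 CPM in IgG replicate 2 and at 22.1 to 22.7 CPM in the other controls.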

How the results depend on the processing

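Over 21 alternatives the log2 fold change of Emp1 stayed negative (-0.52 to -0.32) and that of Pmp22 too (-0.32 to -0.09). Emp1 passed the threshold by DESeq2 (-0.42, adjusted p = 0.0377) and edgeR without treated replicate 4, and 19 alternatives left it uncalled. With 1 library left out Emp1 ran from -0.52 to -0.32, Emp2 from -0.10 to 0.11. Emp2 was negative in 7 alternatives, at -0.0056 with no low-count filter, -0.0137 by limma-voom and -0.0047 with the U suffix as covariate, and its adjusted p was at least 0.548 in all 21. Emp3 was positive in 20 (DESeq2 0.20, adjusted p = 0.0472) and negative, at -0.13, with the length and GC trends removed; the cause was not tested. That removal also took the Emp2 to Emp3 log2 ratio from -0.22 to 0.15, and the Emp3 to Pmp22 ratio from 0.42 to 0.19. Scaled by library totals the exact permutation p was 0.0286 for Emp1 and Emp3 and 0.971 for Emp2, whose mean difference changed sign. Without length scaling the treated shares of Emp1, Emp2, Emp3 and Pmp22 were 71.4%, 11.7%, 11.6% and 5.33%. Genes called at an adjusted p under 0.05 numbered 0 by edgeR (6915 at an unadjusted p), 4708 by DESeq2, 1 by limma-voom, 1291 with sample weights, and 0 to 3447 with 1 library left out (1260 without treated replicate 1, 3447 without replicate 4). Of genes at an unadjusted p under 0.05, 49.2% were higher after treatment, and 61.5% with upper quartile scaling. No paired analysis was possible because the replicate numbers are only names. With 4 tumours a group, the interval of Emp2 leaves changes up to 0.36 in log2 undetected.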
